A study of Mus musculus with 21 samples.

Results

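The glycolysis and hypoxia response genes are a set of 41 mouse genes that encode the enzymes of glycolysis, the proteins that sense oxygen, and targets of the hypoxia-inducible factors (HIFs). They were taken by symbol from a list. This list and the neighbouring gene lists below were chosen with earlier results of these data known. The shares over all genes beside each count are therefore a description, not a test. All 41 were found among the 55341 genes of the count table, and all 41 were among the 15240 genes with enough counts to be tested. RNA had been sequenced in fibro-adipogenic progenitors (FAPs), the mesenchymal cells of skeletal muscle that can become fat or fibrous tissue. Prdm16 Flox/Flox mice carrying one Pdgfra Cre-ERT allele (called Prdm16, 2 libraries) were set against Prdm16 Flox/Flox mice with Pdgfra +/+ and no Cre (called WT, 3 libraries). Both genotypes thus carried the floxed alleles, and the Cre acts in cells that express Pdgfra. The mice were adult, received tamoxifen on 5 consecutive days, and were injured in the muscle with cardiotoxin 7 days later. FAPs were sorted 5 days after the injury and grown for 4 to 5 days on coated dishes, so the RNA is that of cultured cells. Neither the oxygen nor the glucose of the cultures is given in the sources used here. Nothing in the labels ties replicates to separate animals, and the p-values measure only the spread between these libraries. In such bulk RNA, fewer cells of a type and less RNA per cell cannot be told apart.

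Glycolysis splits glucose into pyruvate, which is either burned in mitochondria or reduced to lactate and exported. When oxygen is low, the prolyl hydroxylases encoded by Egln genes no longer mark the HIF alpha subunits for destruction by the Vhl ubiquitin ligase, and HIF then binds a short core sequence near its target genes. Those targets include nearly all glycolytic enzymes, glucose and lactate transporters, the collagen-modifying hydroxylases and the vessel growth factor Vegfa. Some of them, such as Egln3, feed back on the pathway itself.

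Total counts were 10657791, 7053114 and 10284864 in WT replicates 1, 2 and 3, and 8448654 and 5839587 in Prdm16 replicates 1 and 2. Prdm16 itself did not separate the genotypes, with 16.4, 13.5 and 5.51 CPM against 10.6 and 15.3 CPM (CPM, counts scaled to the same library total), a fold change of 0.13 ± 0.47 on the log2 scale (edgeR, adjusted p = 0.9996), so it gives no check of the labels. The authors' deposited comparison of Prdm16 with WT did not follow these labels. Of the 10 ways to split the 5 libraries into 3 and 2, only the one that sets WT replicate 3 together with Prdm16 replicate 2 returned the authors' p, within 1% for 15240 of 15240 genes, while the labelled pair matched 179 genes (1.17%). These 2 libraries are called the authors' pair below. Which genotype each library of the pair holds cannot be told from these files, so both groupings are given and every library keeps the name on its label. The same pair stood apart in interferon-stimulated genes, 15 of 15 of which edgeR called lower in it, with summed levels of 182 and 255 CPM against 3272 to 4013 CPM. Of all genes tested edgeR called 1.04% lower in it. Prdm16 replicate 2 also differed in sex-linked RNA, with 15 counts of Xist and 372 of the Y-linked Ddx3y, against 3483 to 4652 and 0 to 1 in the other 4 libraries, so it is not a technical repeat of any of them.

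FAP markers were present in every library: the 9 listed summed to 6726, 7240, 3549, 6717 and 6490.4 CPM in WT replicates 1, 2 and 3 and Prdm16 replicates 1 and 2. Pdgfra, Ly6a, Tcf7l2, Hic1 and Col3a1 (5 of 9) were below the other 3 libraries in both libraries of the authors' pair. Of all genes tested 14.1% were. By the pair 0 of the 9 passed edgeR's test, while the authors' deposited table called 4 down, against 2.28% of all genes tested. By the labels Cd34, Dcn and Lum (3 of 9) lay above all WT libraries in both Prdm16 libraries, where 8.83% of all genes did. By the labels 0 of the 9 passed, as did 0 of all genes tested. The 7 myoblast markers summed to 240 and 213 CPM in the pair against 80.4, 83.7 and 167 CPM. The 5 muscle fibre markers summed to 113, 189 and 254 CPM in WT against 407 and 363 CPM in Prdm16. Macrophage and endothelial markers summed to 5.29 to 8.17 CPM in all 5 libraries. The part of the interferon, sex-linked, FAP, myoblast and muscle fibre differences in the results below was not tested. A level found in Prdm16 replicate 2 alone cannot be told apart from the sex-linked difference of that library.

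The 41 genes together took the largest share of the library in Prdm16 replicate 2 and the smallest in Prdm16 replicate 1, so that the libraries labelled Prdm16 lay at opposite ends. The share was 1.80% of counts in Prdm16 replicate 2 (95% Wilson interval 1.79 to 1.81) and 0.896% in Prdm16 replicate 1 (0.889 to 0.902). It was 0.985% (0.979 to 0.991), 1.26% (1.25 to 1.27) and 1.64% (1.63 to 1.65) in WT replicates 1, 2 and 3. These intervals cover counting error only. Glycolytic enzymes made up most of the share in every library, at 0.659%, 0.858% and 1.09% in WT and 0.628% and 1.15% in Prdm16.

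**Figure D1:**
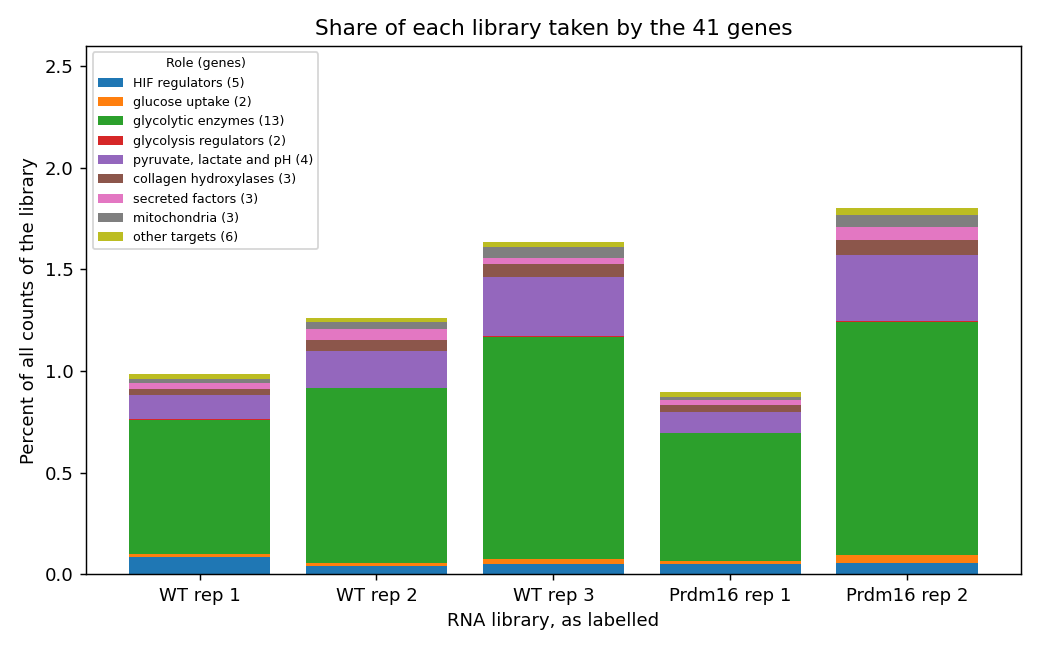
Share of all counts of each RNA library (y axis, percent) taken by the 41 genes, stacked by role, for the 5 libraries as labelled (x axis). The bars reach 0.985%, 1.26% and 1.64% in WT and 0.896% and 1.80% in Prdm16; no error is drawn.

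Gene by gene the order varied, though Prdm16 replicate 2 was most often the highest library and Prdm16 replicate 1 most often the lowest. Prdm16 replicate 2 gave the highest level of 30 of the 41 genes, where it was highest for 22.8% of all genes tested. Prdm16 replicate 1 gave the lowest level of 24, where it was lowest for 9.92% of all genes tested. Within the Prdm16 label, replicate 2 exceeded replicate 1 for 39 of 41 genes (background 50.2%), with a median ratio of 2.29, against 1.002 over all genes tested. Within the WT label, replicate 3 exceeded both other replicates for 28 of 41 (background 32.5%), with a median ratio of 1.47 to the mean of replicates 1 and 2, against 0.975 over all genes tested.

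**Figure D2:**
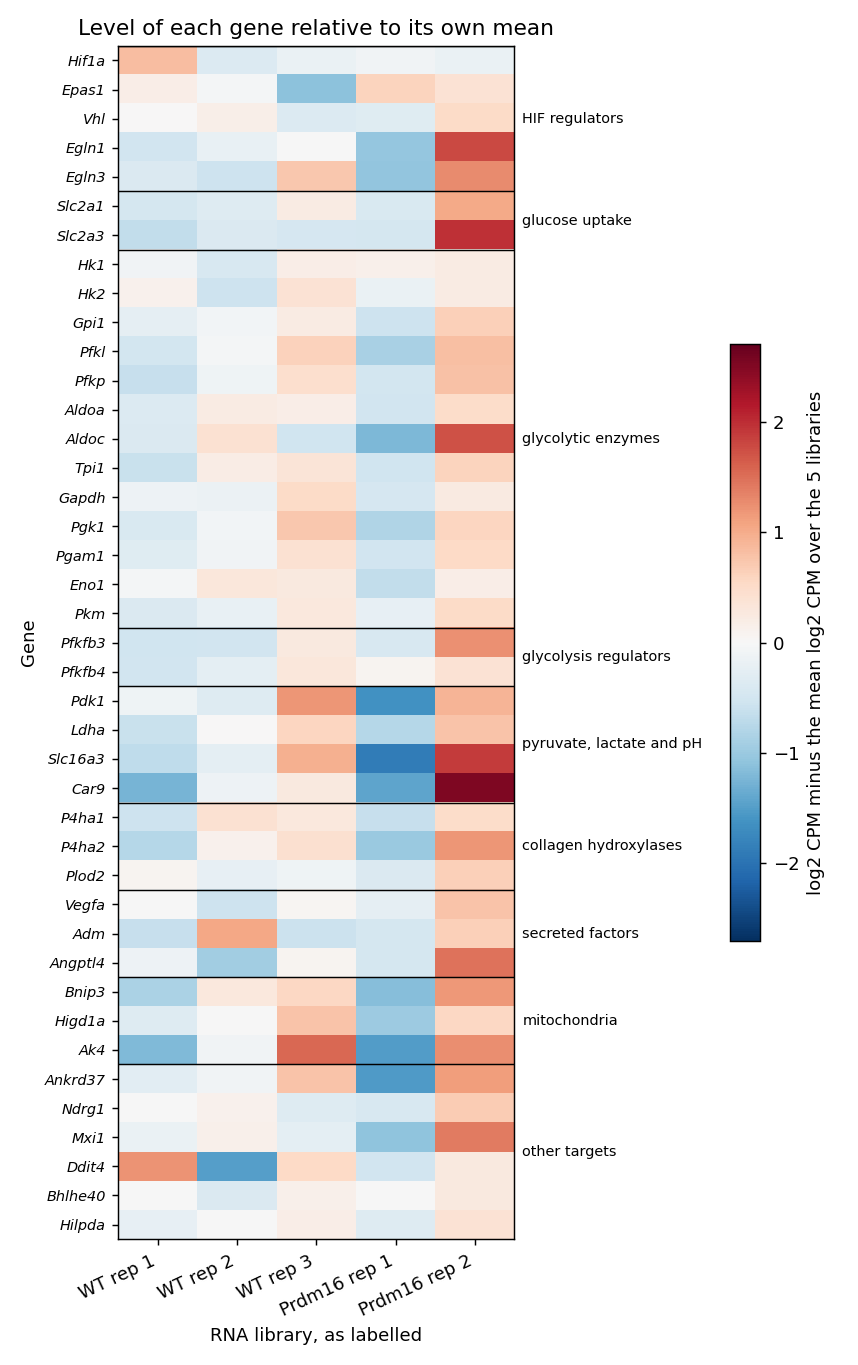
Level of each gene (rows, grouped by role) in each RNA library as labelled (columns), drawn as log2 CPM minus the gene's mean log2 CPM over the 5 libraries; red is above and blue below that mean. Prdm16 replicate 2 is the highest library for 30 of 41 genes and Prdm16 replicate 1 the lowest for 24.

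The labelled comparison asked whether the genes differ between Prdm16 and WT FAPs. None of the 41 passed edgeR's two-sided quasi-likelihood test (adjusted p = 0.9996 for each by the method of Benjamini and Hochberg), as was so for 0 (0%) of all genes tested. At an unadjusted p under 0.05 there was 1 member, Slc2a3, where 2.48% of all genes had such a p. DESeq2 and limma-voom called 0 members as well, with 3 and 0 at an unadjusted p under 0.05. Positive log2 fold changes were found for 31 members and negative ones for 10, where 50.1% of all genes were positive. The median was 0.21, against 5.3e-04 over all genes. That direction rested on Prdm16 replicate 2, without which the median was -0.55 and 36 of 41 values were negative, and it was 0.63 without Prdm16 replicate 1. Both Prdm16 libraries lay above all WT libraries for 1 member, Epas1 (background 8.83%), and below for 0 (background 8.96%). With low counts left unfiltered edgeR called Slc2a3, where it called 10 of 32193 genes higher and 15 lower. Without WT replicate 3 and Prdm16 replicate 1, which leaves 1 Prdm16 library, the members' median was 0.78.

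With the authors' pair set against the other 3 libraries, 38 of 41 log2 fold changes were positive (background 49.4%), with a median of 0.78 against -0.0061 over all genes tested. Both libraries of the pair lay above all others for 28 members, where 13.3% of all genes did, and below all others for 0, where 14.1% did. Egln3 and Ak4 passed edgeR's test (2 of 41 called higher, 0 lower), where 0.157% of all genes were called higher and 1.04% lower. At an unadjusted p under 0.05 there were 25 members (background 9.84%). The count of calls moved with the tool and with single libraries. DESeq2 called 18 members higher, where it called 92 of 15240 genes higher, and limma-voom called 4 (30 of 15240 genes). Upper-quartile scaling gave 7 (45 of 15240 genes) and no filter on low counts 21 (167 of 32193 genes), all higher. Leaving out WT replicate 1 left 1 call (Egln3), where 20 of 14784 genes were called higher. Leaving out WT replicate 2 gave 6 (17 of 15170 genes), and Prdm16 replicate 1 gave 1 (Slc16a3, 16 of 15054 genes). Without Prdm16 replicate 2 the median was 0.55 with 35 of 41 positive, and without WT replicate 3 it was 0.96 with 40 of 41 positive. The labelled comparison and this one use the same 5 libraries, so neither is a check on the other.

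The authors' deposited table rests on the same grouping of the same 5 libraries, so its calls are no second line of support for the pair. In it, 21 of the 41 genes were called up and 0 down. Of all genes tested here it called 0.801% up and 2.28% down. The authors gave an adjusted p to 36 of the 41, and among all 6237 genes with one, 1.97% were called up. Their log2 fold changes ran from -0.15 for Hif1a to 2.29 for Car9, and Slc16a3 had the smallest adjusted p (5.2e-06) with a log2 fold change of 2.12. For every member the deposited fold change was smaller in size than edgeR's for the pair, so the values are not interchangeable. Aldoc had 0.27 against 1.22, and Mxi1 0.33 against 1.07. At the edge of the call, Pgam1 (0.61, adjusted p = 0.092) and Pkm (0.52, 0.092) were called up in the authors' deposited table, and Tpi1 (0.50, 0.132) was not.

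**Figure D3:**
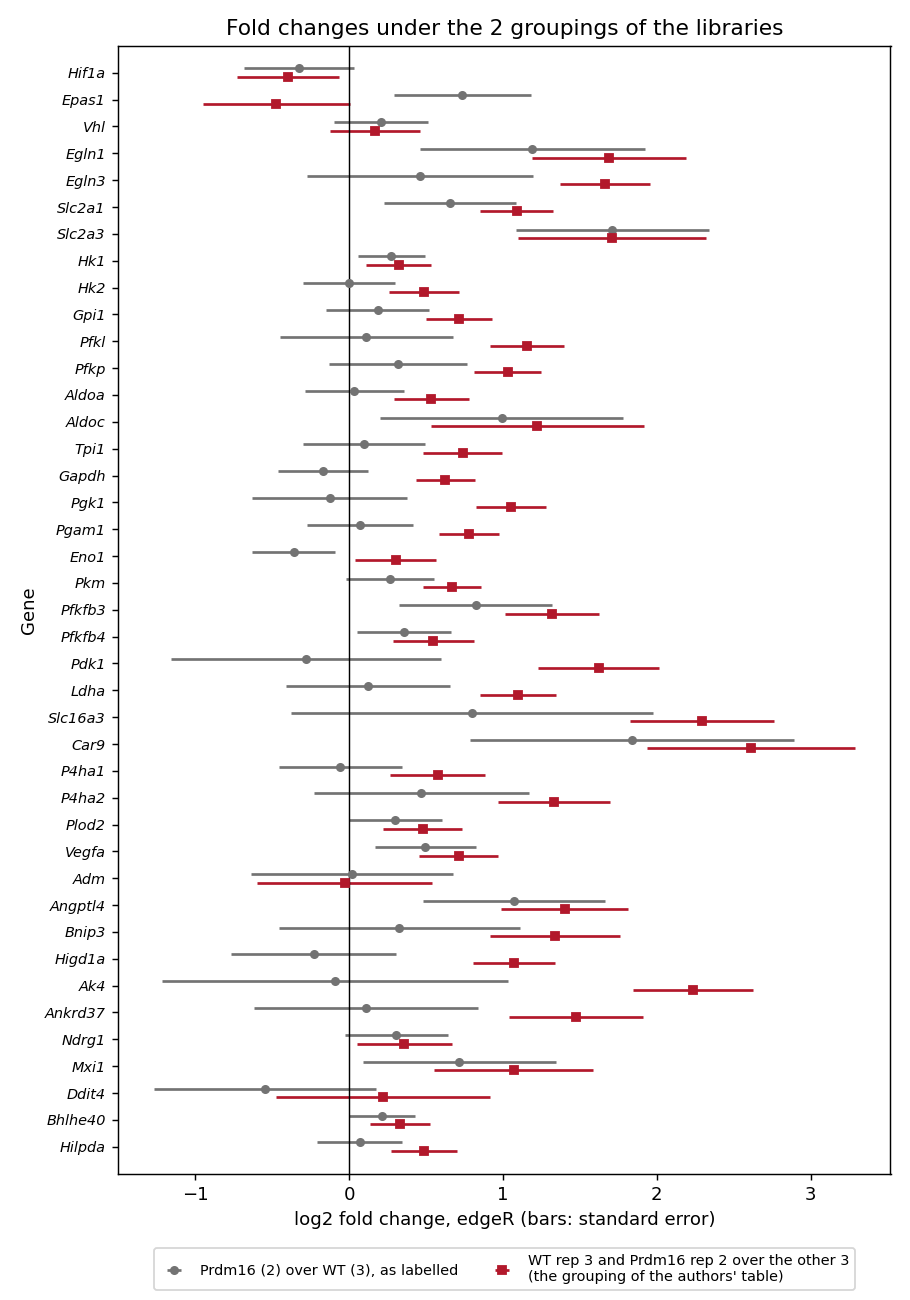
Log2 fold change of each of the 41 genes (x axis, edgeR, bars are standard errors) for Prdm16 over WT as labelled (grey) and for WT replicate 3 and Prdm16 replicate 2 over the other 3 libraries (red). The grey values have a median of 0.21 and none passed the test; the red values have a median of 0.78, and Egln3 and Ak4 passed.

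The promoters show what the genes share in sequence. RefSeq promoters (build GRCm38.p6, 250 bases before to 50 after the start) were matched for 35 of the 41, using for each gene the promoter nearest its annotated 5′ end, with Epas1, Slc2a3, Plod2, Angptl4, Ndrg1 and Bhlhe40 not matched. The core letters ACGTG, searched on both strands, were found in 19 of 35 (54.3%, 95% Wilson interval 38.2 to 69.5), against 25.6% of the promoters of tested genes and 19.8% of all 26794 promoters. Members' promoters were also richer in G and C, with a median of 64.7% against 60.7% and 52.7%. The 6-letter CACGTG, an E-box that contains ACGTG on both strands and is read by other factors too, was in 3 of 35 (8.57%) against 10.2% of tested genes. With GCGTG counted as well, 27 of 35 (77.1%) held a match, against 62.7% of tested genes. Of the members called up in the authors' deposited table, 13 of 19 with a promoter held ACGTG, and of the rest 6 of 16. A match is a description of letters, not evidence of binding.

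Windows of 120 bases before the start are shown for the 4 members with a match there and the smallest p in the comparison by the authors' pair, 5′ to 3′ on the gene's strand, with ACGTG or its reverse complement CACGT in capitals. They come from the promoters of Egln3 (chr12:54204005-54204124, minus strand), Pgk1 (chrX:106186902-106187021, plus), Slc2a1 (chr4:119108625-119108744, plus) and Ldha (chr7:46845657-46845776, plus).
Egln3: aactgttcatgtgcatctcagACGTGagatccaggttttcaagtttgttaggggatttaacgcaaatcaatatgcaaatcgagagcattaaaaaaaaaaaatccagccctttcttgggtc
Pgk1: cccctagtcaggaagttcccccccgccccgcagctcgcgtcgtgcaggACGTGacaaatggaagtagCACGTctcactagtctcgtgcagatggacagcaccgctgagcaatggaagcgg
Slc2a1: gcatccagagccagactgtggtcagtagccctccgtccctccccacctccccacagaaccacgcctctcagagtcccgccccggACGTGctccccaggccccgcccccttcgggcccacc
Ldha: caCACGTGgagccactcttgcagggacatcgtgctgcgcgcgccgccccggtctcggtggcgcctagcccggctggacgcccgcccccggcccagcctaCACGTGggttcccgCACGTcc
Egln3 held its only match far from the start, the first base 229 bases before it, and Slc2a1 held one 36 bases before it. Pgk1 had a match on each strand, beginning 150 bases before the start. In Ldha there were 2 CACGTG E-boxes and 1 further CACGT, in the promoter of a start that lies inside the annotated gene.

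Among the oxygen sensors and HIF subunits, the levels of Egln1, Egln3 and Vhl were highest in Prdm16 replicate 2, and those of Hif1a and Epas1 were highest in other libraries. In the sentences that follow, levels are given in CPM in the order WT replicates 1, 2 and 3 against Prdm16 replicates 1 and 2, and fold changes are log2 values with their standard error for the authors' pair (2 libraries) over the other 3 unless the labels are named. Egln3, a prolyl hydroxylase that is itself a HIF target (chromosome 12, 54178981 to 54203874, GRCm38.p6), had 13.8, 12.2 and 29.9 CPM against 8.52 and 43.3 CPM. It rose by 1.66 ± 0.29 (edgeR, adjusted p = 0.022), from 11.5 ± 2.69 CPM (SD, n = 3) to 36.6 ± 9.53 CPM (SD, n = 2). Its close relative Egln1, the main hydroxylase acting on HIF in normal oxygen, had 8.85, 10.9 and 12.5 CPM against 6.07 and 43.5 CPM. WT replicate 3 exceeded WT replicate 2 by little and Prdm16 replicate 2 held 3.48 times its level, and Egln1's fold change of 1.69 ± 0.50 did not pass (adjusted p = 0.260). The third prolyl hydroxylase of the family, Egln2, is no member and had 108, 24.2 and 46.1 CPM against 31.6 and 24.5 CPM, with overlapping groups and a fold change of -0.63 ± 0.65. Hif1a, the broadly expressed HIF alpha subunit, had 813, 355 and 406 CPM against 433 and 404 CPM, high in WT replicate 1 and between 355 and 433 CPM in the other 4 libraries. Epas1, the second HIF alpha subunit, had 7.79, 6.59 and 3.17 CPM against 10.4 and 9.06 CPM. The labels separated Epas1 without overlap, with 5.85 ± 2.40 CPM (SD, n = 3) against 9.72 ± 0.941 CPM (SD, n = 2), but its labelled fold change of 0.74 ± 0.45 did not pass (edgeR, adjusted p = 0.9996). Vhl, which marks HIF alpha for destruction, had 34.3, 37.7 and 26.1 CPM against 27.2 and 48.5 CPM and a fold change of 0.17 ± 0.29.

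The glucose transporters differed in which libraries were high. Slc2a1, the common glucose transporter of growing cells (chromosome 4, 119108745 to 119137330), had 138, 149.6 and 222 CPM against 144 and 392 CPM. Both libraries of the pair were above the others, at a fold change of 1.09 ± 0.24 (edgeR, adjusted p = 0.068). Slc2a3, a transporter of high glucose affinity best known from neurons, had 5.00, 6.02 and 5.78 CPM against 5.72 and 31.3 CPM. Its high level was in Prdm16 replicate 2 alone, 5.40 times WT replicate 3, and the other 4 libraries lay between 5.00 and 6.02 CPM. As labelled, Slc2a3 had a fold change of 1.71 ± 0.63, the smallest p of the 41 (unadjusted p = 0.028, adjusted p = 0.9996, edgeR).

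The 13 glycolytic enzymes all had positive fold changes for the authors' pair (background 49.4%), from 0.30 for Eno1 to 1.22 for Aldoc. In 10 of them the pair lay above all other libraries (background 13.3%), though 0 passed edgeR's test. The authors' deposited table called 6 of them up (background 0.801%). At the phosphofructokinase step, the committed step of glycolysis, the 2 subunits among the members had the pair above the rest. Pfkl, the liver-type subunit, had 207, 284 and 449.5 CPM against 159.9 and 518 CPM and a fold change of 1.16 ± 0.24 (edgeR, adjusted p = 0.056). Pfkp, the platelet-type subunit, had 61.0, 87.0 and 128 CPM against 66.3 and 164 CPM and a fold change of 1.03 ± 0.22 (adjusted p = 0.059). Neither subunit passed. The third subunit Pfkm, the muscle type and no member, had 48.0, 48.7 and 38.9 CPM against 61.5 and 52.6 CPM with overlapping groups and a fold change of -0.21 ± 0.23.

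In the later steps of the pathway, Pgk1, which makes the first ATP of glycolysis and is the only member on the X chromosome (chromosome X, 106187100 to 106203699), had 177, 224 and 388 CPM against 133 and 349.5 CPM. Its fold change was 1.05 ± 0.23 (edgeR, adjusted p = 0.066), with WT replicate 3 slightly above Prdm16 replicate 2. Pgam1, the mutase of the next step, had 93.0, 109.9 and 157 CPM against 82.5 and 169 CPM and a fold change of 0.78 ± 0.19. Pkm, the pyruvate kinase that closes the pathway, had 1774, 2021 and 2809 CPM against 1982 and 3313 CPM, with a fold change of 0.67 ± 0.19 (edgeR, adjusted p = 0.194). Pgk1, Pgam1 and Pkm each separated the pair from the rest.

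Gpi1, the isomerase after hexokinase, had 597, 672 and 816 CPM against 481 and 1099 CPM and a fold change of 0.72 ± 0.21. Tpi1, which interconverts the triose phosphates, had 702, 1222 and 1351 CPM against 733 and 1603 CPM at 0.74 ± 0.26. Gapdh, an enzyme often used as a reference gene, had 558, 551 and 876 CPM against 449.8 and 727 CPM, a fold change of 0.62 ± 0.19 (edgeR, adjusted p = 0.246). All 3 put the pair above the other libraries, and Gapdh did not pass. In Aldoa and Eno1 the groups overlapped, because WT replicate 2 reached the level of the pair. Aldoa, the main aldolase, had 1396, 2078 and 2038 CPM against 1244 and 2516 CPM. Eno1, the common enolase, had 971, 1249 and 1209 CPM against 639.8 and 1140.4 CPM, values that are uncertain because reads can fall on its near-identical copy Eno1b.

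At 2 other steps, the authors' pair lay above the other libraries for both hexokinases, and its levels overlapped theirs for both aldolases. Aldoc, an aldolase best known from brain, had 7.50, 13.0 and 6.72 CPM against 4.20 and 32.1 CPM. Only Prdm16 replicate 2 was high in Aldoc, 4.79 times WT replicate 3, against 1.23 times for Aldoa. The hexokinases trap glucose in the cell. Hk1 had 128, 101 and 155 CPM against 149.5 and 160.0 CPM with a fold change of 0.32 ± 0.21, and Hk2, the inducible form, had 90.6, 56.2 and 109 CPM against 73.9 and 97.0 CPM with 0.49 ± 0.23. Neither passed (edgeR, adjusted p = 0.684 and 0.529).

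Pfkfb3 and Pfkfb4 make fructose 2,6-bisphosphate, the signal that speeds phosphofructokinase. Pfkfb3 had 12.7, 12.9 and 22.3 CPM against 13.7 and 43.3 CPM, with a fold change of 1.32 ± 0.31 (edgeR, adjusted p = 0.090). Pfkfb4 varied less, at 14.8, 17.6 and 25.8 CPM against 22.3 and 27.5 CPM and 0.55 ± 0.26 (adjusted p = 0.537). In both the pair lay above the other 3 libraries.

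The genes that turn pyruvate into exported lactate and acid included the widest ratios between libraries, and all 4 put the authors' pair above the rest (background 13.3%). Slc16a3, the monocarboxylate transporter that exports lactate (chromosome 11, 120948484 to 120959000), had 57.1, 77.1 and 179 CPM against 24.9 and 340.3 CPM, a ratio of 13.7 between the 2 libraries labelled Prdm16. Its fold change was 2.29 ± 0.47 (edgeR, adjusted p = 0.096), from 53.0 ± 26.4 CPM (SD, n = 3) to 259.8 ± 114 CPM (SD, n = 2). Car9, the membrane carbonic anhydrase often used as a marker of hypoxia (chromosome 4, 43507026 to 43513729), had 2.12, 4.59 and 6.06 CPM against 1.87 and 29.0 CPM. Its level in Prdm16 replicate 2 was 15.5 times that in Prdm16 replicate 1 and 4.77 times that in WT replicate 3, and WT replicate 3 was only slightly above WT replicate 2. Car9's fold change of 2.61 ± 0.68 was the largest of the 41 and did not pass (edgeR, adjusted p = 0.189).

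Pdk1, the kinase that keeps pyruvate out of mitochondria (chromosome 2, 71873215 to 71903858), had 35.9, 30.2 and 88.1 CPM against 12.4 and 73.0 CPM. Here WT replicate 3 was the highest, and Prdm16 replicate 1 lay below all 3 WT libraries. Ldha, which reduces pyruvate to lactate (chromosome 7, 46842274 to 46855627), had 1116, 1701 and 2534 CPM against 987 and 2897 CPM. The fold changes were 1.62 ± 0.39 for Pdk1 (edgeR, adjusted p = 0.151) and 1.10 ± 0.25 for Ldha (adjusted p = 0.078). By the labels they were -0.28 ± 0.88 and 0.12 ± 0.53.

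**Figure D4:**
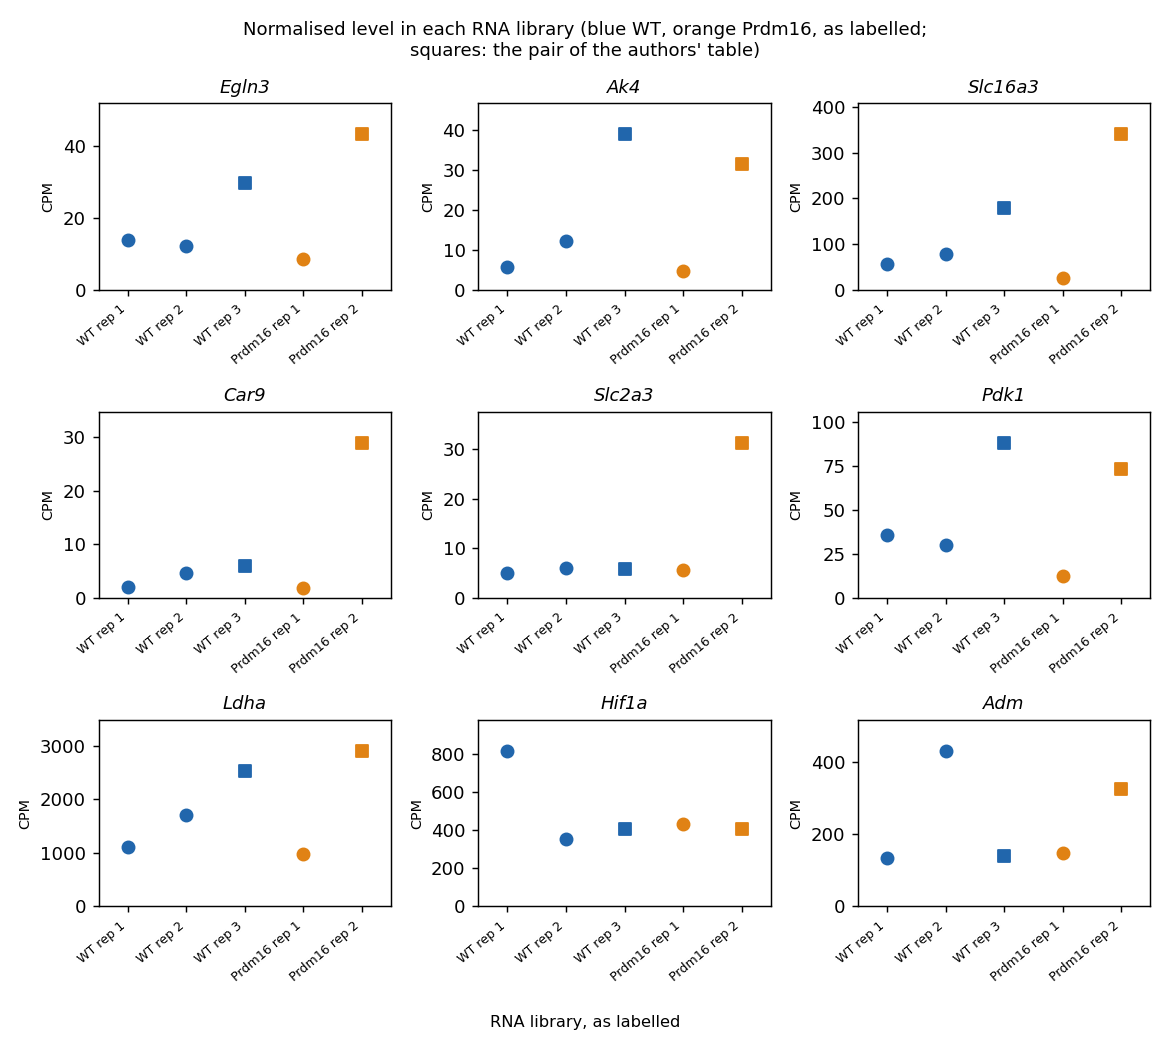
Normalised level (y axis, CPM, from 0) of 9 of the genes in each RNA library as labelled (x axis); blue is WT, orange Prdm16, and squares mark the authors' pair. Squares lie above all circles for Egln3, Ak4, Slc16a3, Car9, Pdk1 and Ldha, 1 square alone is high for Slc2a3, and for Hif1a and Adm a WT library outside the pair is the highest.

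The 3 genes of collagen-modifying enzymes, which in hypoxia link the pathway to matrix, were measured. P4ha2, an alpha subunit of collagen prolyl hydroxylase, had 70.8, 132 and 164 CPM against 60.7 and 278 CPM, with the pair above the rest at 1.33 ± 0.36 (edgeR, adjusted p = 0.230). Its relative P4ha1 had 204, 397 and 366 CPM against 195 and 424 CPM, where WT replicate 2 lay among the pair and the fold change was 0.58 ± 0.31. Plod2, a lysyl hydroxylase that shapes collagen cross-links, had 73.4, 60.1 and 64.6 CPM against 53.3 and 109.6 CPM, high in Prdm16 replicate 2 alone.

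Among secreted factors, Angptl4, an inhibitor of lipoprotein lipase, had 53.4, 30.4 and 61.4 CPM against 42.3 and 162 CPM and a fold change of 1.40 ± 0.41 (edgeR, adjusted p = 0.278). Vegfa, the main growth factor of blood vessels, had 78.7, 53.8 and 82.4 CPM against 66.8 and 136 CPM and 0.71 ± 0.26 (adjusted p = 0.355). In both genes Prdm16 replicate 2 was the clear maximum and WT replicate 3 was close to WT replicate 1. Adm, the vasodilator adrenomedullin, followed another order, with 135, 430.0 and 141 CPM against 149 and 327 CPM: WT replicate 2 was the highest and WT replicate 3 stayed near WT replicate 1.

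All 3 genes of mitochondrial function put the pair above the rest (background 13.3%). Ak4, a mitochondrial adenylate kinase (chromosome 4, 101416478 to 101467771), had 5.77, 12.3 and 39.0 CPM against 4.67 and 31.6 CPM. It rose by 2.23 ± 0.39 (edgeR, adjusted p = 0.024), from 7.59 ± 4.14 CPM (SD, n = 3) to 35.3 ± 5.22 CPM (SD, n = 2). Bnip3, a receptor for the removal of mitochondria, had 109, 238 and 289 CPM against 88.5 and 445 CPM, with WT replicate 2 close to the pair and a fold change of 1.34 ± 0.42 (adjusted p = 0.329). Higd1a, a small protein of the respiratory chain, had 80.1, 102 and 176 CPM against 51.8 and 152 CPM and 1.07 ± 0.27 (adjusted p = 0.124).

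The other HIF targets were mixed, with 3 of 6 putting the pair above the rest (background 13.3%). Ankrd37, an ankyrin-repeat protein, had 5.48, 6.31 and 11.5 CPM against 2.33 and 14.7 CPM and a fold change of 1.47 ± 0.43 (edgeR, adjusted p = 0.230), on 20 to 123 counts per library. Mxi1, an antagonist of Myc, had 9.33, 11.6 and 8.86 CPM against 5.02 and 27.9 CPM, high in Prdm16 replicate 2 alone. Hilpda, a lipid droplet protein, had 37.5, 43.1 and 49.6 CPM against 34.0 and 57.4 CPM, and Bhlhe40, a circadian repressor, 131, 101 and 146 CPM against 132 and 160.2 CPM, both with the pair on top by a small margin. Ndrg1, a stress-response gene, had 56.0, 61.1 and 44.5 CPM against 41.7 and 91.6 CPM. Ddit4, an inhibitor of mTORC1 that also answers other stresses, had 28.2, 4.30 and 17.5 CPM against 8.52 and 14.6 CPM, with its highest level in WT replicate 1 and its lowest in WT replicate 2.

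Prdm16 replicate 2 held at least 2 times the level of WT replicate 3 for 9 of 41 genes, where 8.53% of all genes tested did: Car9, Slc2a3, Aldoc, Egln1, Mxi1, Epas1, Angptl4, Adm and Ndrg1. WT replicate 3 was at or above Prdm16 replicate 2 for another 9, where 46.8% of all genes were: Ak4, Pdk1, Gapdh, Higd1a, Pgk1, Hk2, Eno1, Hif1a and Ddit4. These compare single libraries and have no test.

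Neighbouring pathways were read from lists in the same way. Of 33 other HIF target genes 32 were tested, and by the labels 0 were called by edgeR, with 0 at an unadjusted p under 0.05 (background 2.48%). For the authors' pair 49.4% of all genes had positive fold changes, 0.157% were called higher, and the authors' deposited table called 0.801% up. Of the 32 listed genes 28 were positive with a median of 0.49, 2 were called higher, and that table called 7 up. Among the called genes was Tfrc, the transferrin receptor that takes up iron, with 56.1, 57.3 and 191 CPM against 64.9 and 157 CPM (1.55 ± 0.19, edgeR, adjusted p = 0.0019). The 28 other glycolysis genes include tissue-specific isoforms. Of the 20 tested among them, 12 were positive with a median of 0.14. By edgeR 0 were called, with 5 at an unadjusted p under 0.05 (background 9.84%). In 7 the pair lay above all other libraries (background 13.3%), and the authors' deposited table called 2 up, Eno3 and Eno1b. The muscle enolase Eno3 had 20.5, 31.4 and 84.6 CPM against 47.2 and 70.7 CPM and a fold change of 1.24 ± 0.32.

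Pathways that compete with lactate production for pyruvate or glucose had smaller differences. Of 27 genes of pyruvate dehydrogenase and the citrate cycle 18 had negative fold changes for the authors' pair, with a median of -0.12. Of all 15240 genes tested 7717 were negative. By edgeR 0 of the 27 were called or had an unadjusted p under 0.05 in either comparison. Over all genes 9.84% had such a p by the pair and 2.48% by the labels. The pair lay below all other libraries for 7 of the 27 (background 14.1%) and above for 2 (background 13.3%). The 8 pentose phosphate genes had a median of 0.08, with 5 positive and 0 called in either. Other HIF regulators, such as the Vhl partners Elob and Eloc, had 10 of 14 negative values for the authors' pair, against 7717 of all 15240 genes. Their median was -0.14, with 0 called. Hif1an, the asparaginyl hydroxylase that inhibits HIF, had a positive value of 0.36 ± 0.21. It was the 1 gene of that list with the pair above all other libraries (background 13.3%). By the labels Elob (-0.45 ± 0.17) and Eloc (-0.42 ± 0.18) had the 2 unadjusted p-values under 0.05 of that list (edgeR, 0.028 and 0.042, background 2.48%). Neither passed (edgeR, adjusted p = 0.9996).

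The chromatin comparison asked where the genes lie relative to H3K9me2, a mark of repressed chromatin, and LaminB1, a protein of the nuclear lamina. None of the 41 genes touched a domain of either in any library, whether counted by any overlap of the gene body, by the start site or by at least 0.5 of the body. With 0 genes in each of the 3 Prdm16 and 3 WT libraries of H3K9me2, a test of the genotypes has nothing to compare. Of all tested genes that could be located 2.62% to 4.80% lay in H3K9me2 domains per library by at least 0.5 of the body. In LaminB1 domains it was 1.50% (WT) and 0.604% (Prdm16), where there was 1 library of each genotype. By any overlap the shares were 3.82% to 6.09% for H3K9me2, and 2.18% (WT) and 0.869% (Prdm16) for LaminB1. At such shares among expressed genes, an absence in a list of 41 does not set it apart. The nearest H3K9me2 domain in any library lay 17.3 kb from Pgk1, 41.9 kb from Epas1 and 43.9 kb from Pfkp, and 5687 kb from Pkm, with a median of 459 kb over the 41 genes. Ak4, called higher in the authors' pair, lay 46.2 kb from one.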

How the data were processed

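Raw counts per gene in 5 RNA libraries, which the authors deposited, were analysed. Per the labels' protocols they came from SMART-seq2 libraries of polyadenylated RNA. The submitters' processing notes name STAR 2.7, featureCounts, DESeq2 1.20 and Bowtie 1.2.2, without their roles. The authors' deposited comparison table gave a log2 fold change with its standard error, a p-value and an adjusted p-value (its name gives limits of 0.5 and 0.1), and its mean normalised signal was not used. The domain lists carry the authors' score, used here only to rank domains within a library. The sources used here do not name the domain caller.

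Counts were filtered by edgeR 4.0.16 at its defaults, given TMM scaling factors and tested by robust quasi-likelihood in R 4.3.3, with Benjamini-Hochberg adjustment over all 15240 genes and a threshold of 0.05. The fitting code was tested on simulated data. The labels do not say that same-numbered libraries pair, and with 2 Prdm16 libraries their correlation cannot decide it, so no pairing was used. The grouping of the authors' table was found with DESeq2 1.42.0. limma 3.58.1 was an alternative. Gene positions and promoters came from RefSeq (GRCm38.p6), and the submitters' processing notes name GRCm38 and mm10 among the builds of the files. The domains were compared in Python 3.11.15. The members and lists were chosen with earlier results of these data known. Values in every library are given for members by smallest unadjusted p per role and for isoform pairs, and Gpi1, Tpi1, Gapdh, Eno1 and Ddit4, and outside the members Pfkm, Egln2 and Hif1an, were added after their values were seen. Other genes follow the smallest p per list. One gene of these lists is not reported here. A ranking of genes by likeness to the members was left out, because 5 libraries are too few for a correlation. Levels are not per length, so they are compared within a gene only. The 8 input samples were not used here.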

Additional observations from a re-analysis of the deposited data

How the results depend on the processing

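The labelled comparison called 0 members under RLE size factors, upper-quartile scaling, DESeq2, limma-voom and the replicate block. It also called 0 with each WT replicate left out in turn. With low counts unfiltered it called 1 (Slc2a3), where 10 of 32193 genes were called higher and 15 lower. The members' labelled median was 0.78 without WT replicate 3 and Prdm16 replicate 1, and ran from -0.55 to 0.63 with single libraries left out. With the authors' pair the members called higher numbered 7 with upper-quartile scaling (45 of 15240 genes) and 21 with no filter (167 of 32193 genes). They numbered 18 with DESeq2 (92 of 15240 genes) and 4 with limma-voom (30 of 15240 genes). With WT replicate 1, WT replicate 2 or Prdm16 replicate 1 left out they numbered 1 to 6. In each of these fits 0 members were called lower. The causes were not tested. The count of promoters with a match was 27 when GCGTG was added. Replicates 1 and 2 are not said to pair across the labels. The correlation of same-numbered deviations from the label means was 0.22 and -0.23. With 2 Prdm16 libraries, whose deviations mirror each other, it cannot decide on pairing. The replicate block gave a median of 0.25. With limma-voom the sign of the labelled log2 fold change turned for Aldoa (-0.031), Ankrd37 (-0.50), Bnip3 (-0.013), Egln3 (-0.023), Hilpda (-4.7e-04), Hk2 (0.012), Pfkl (-0.066), Pgam1 (-0.012) and Slc16a3 (-0.12). With no filter on low counts the sign of the labelled log2 fold change turned for Adm (-0.0014). With the replicate block the sign of the labelled log2 fold change turned for Adm (-0.13), Ak4 (0.58), Gapdh (0.043), Hk2 (0.24), P4ha1 (0.019) and Pgk1 (0.11). With upper-quartile scaling the sign of the labelled log2 fold change turned for Hk2 (0.032). With libraries left out the labelled log2 fold change ran from -0.64 to 0.79 for Adm, from -2.02 to 1.79 for Ak4, from -0.55 to 0.51 for Aldoa, from -1.09 to 1.80 for Aldoc, from -0.19 to 1.92 for Angptl4, from -1.72 to 1.30 for Ankrd37, from -1.25 to 1.34 for Bnip3, from -1.17 to 3.11 for Car9, from -0.99 to 0.038 for Ddit4, from -0.81 to 2.12 for Egln1, from -1.12 to 1.71 for Egln3, from -0.83 to 0.017 for Eno1, from -0.55 to 0.37 for Gapdh, from -0.52 to 0.77 for Gpi1, from -0.56 to 0.12 for Hif1a, from -1.19 to 0.71 for Higd1a, from -0.34 to 0.49 for Hilpda, from -0.23 to 0.38 for Hk2, from -0.85 to 1.02 for Ldha, from -0.97 to 1.46 for Mxi1, from -0.36 to 0.74 for Ndrg1, from -0.71 to 0.48 for P4ha1, from -0.9996 to 1.44 for P4ha2, from -2.05 to 1.12 for Pdk1, from -0.22 to 1.74 for Pfkfb3, from -0.96 to 1.05 for Pfkl, from -0.47 to 1.12 for Pfkp, from -0.53 to 0.72 for Pgam1, from -0.98 to 0.78 for Pgk1, from -0.14 to 0.78 for Pkm, from -0.30 to 0.70 for Plod2, from -2.06 to 2.32 for Slc16a3, from -0.23 to 1.42 for Slc2a1, from -0.56 to 0.72 for Tpi1, from -0.092 to 1.01 for Vegfa and from -0.25 to 0.54 for Vhl. With limma-voom the sign of the authors' pair's log2 fold change turned for Adm (0.052). With upper-quartile scaling the sign of the authors' pair's log2 fold change turned for Adm (0.0019). With libraries left out the authors' pair's log2 fold change ran from -0.75 to 0.71 for Adm, from -0.28 to 1.97 for Aldoc, from -0.20 to 1.31 for Ddit4, from -1.37 to 0.13 for Epas1, from -0.62 to 0.036 for Hif1a, from -0.24 to 0.79 for Ndrg1 and from -0.33 to 0.55 for Vhl. In the H3K9me2 and LaminB1 comparisons 0 members lay in a domain under each overlap rule and with each H3K9me2 replicate left out. The depth of the domain libraries is unknown. Low depth limits Car9, Ankrd37, Ddit4, Epas1, Aldoc, Ak4, Slc2a3 and Mxi1, whose lowest library counts were 16, 20, 30, 34, 36, 40, 42 and 43.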

Other observations

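Eno1 has a near-identical copy, Eno1b, so reads can be assigned to either, and the Eno1 values above are uncertain for that reason. Eno1b had 133, 198 and 369 CPM against 221 and 428 CPM in WT replicates 1, 2 and 3 against Prdm16 replicates 1 and 2. It made up 12.1%, 13.7% and 23.4% of the counts of both genes together in WT and 25.7% and 27.3% in Prdm16. Summed, Eno1 and Eno1b had 1104, 1447 and 1578 CPM against 861 and 1569 CPM, so the sum put WT replicate 3 and Prdm16 replicate 2 above the other libraries, which Eno1 alone did not.

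WT replicates 1 and 2, which the authors' table groups together, differed for single members. Relative to replicate 1, replicate 2 held 0.436 times the level of Hif1a, 0.153 times that of Ddit4 and 3.18 times that of Adm, the highest ratio of the 41, against a median of 1.18 over the 41 genes. These are ratios of single libraries with no test.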
